A study of Rattus with 6 samples.

Results

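Respiratory complex I, the NADH:ubiquinone oxidoreductase of the inner mitochondrial membrane, was followed at the level of its nuclear genes in cultures labelled as aortic vascular smooth muscle cells. The members were all protein-coding genes of the deposited table whose name is Nduf followed by a, b, c, s, v, ab or af and a number. This rule, which uses no expression value, found 46 of the 54012 listed genes: 36 subunit genes, 8 assembly factor genes (Ndufaf) and 2 genes, Ndufa4 and Ndufa4l2, whose names match but whose products are not held to be complex I subunits. The subunit gene Ndufb1 was not analysed here.

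The study concerns CDCP1, a transmembrane glycoprotein and Src family kinase substrate, in carotid artery stenosis and mitochondrial autophagy, per its title. The si-CDCP1 group (3 libraries, genotype label CDCP1 knockdown) received siRNA directed at CDCP1, while the si-NC group (3 libraries, genotype label WT) was treated with control siRNA. Cells of both groups were also treated with Ang II, the vasoconstrictor peptide angiotensin II. All 6 libraries come from aorta and from primary culture by their labels, which do not say whether the replicates of a group are separate animals or isolations, so p-values below measure only the spread between these libraries. The organism label is rat, whereas the table lists mouse genes with mm10 coordinates, and the species of the cells was not settled here.

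Complex I is L-shaped. Its matrix arm takes electrons from NADH and passes them over a flavin and a chain of iron-sulfur clusters to ubiquinone, and its membrane arm pumps protons out of the matrix. A core inherited from bacteria does the catalysis and is encoded partly in the nucleus and partly on the mitochondrial chromosome. Accessory subunits surround that core, and assembly factors build the enzyme from separate modules without staying in it.

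Reads recovered from the deposited FPKM (fragments per kilobase of gene length, scaled to the depth of each library) came to between 16230958 and 17295710 per si-CDCP1 library and between 16050517 and 19771638 per si-NC library. The siRNA target Cdcp1 had 0, 5 and 0 reads in si-CDCP1 replicates 1, 2 and 3 and 2, 2 and 1 reads in si-NC replicates 1, 2 and 3, too few to check the knockdown. Of 7 smooth muscle markers, only Acta2 and Smtn averaged at least 1 FPKM, while Tagln, Cnn1, Myh11, Lmod1 and Des did not. The 7 summed to 44.5 to 75.4 FPKM in si-CDCP1 and 45.9 to 50.2 FPKM in si-NC, and Acta2 was at 64.2 FPKM in si-CDCP1 replicate 3, 1.53 times its next highest library. Of 5 fibroblast markers 4 averaged at least 1 FPKM, with a summed level of 276 to 310 FPKM in si-CDCP1 and 278 to 311 FPKM in si-NC. Nearly all of that sum was Col1a1, at 264 to 299 FPKM over the 6 libraries. The si-CDCP1 replicate 3 library stood apart, with a Pearson correlation of 0.979 to 0.983 with the others on the log2 scale, against 0.988 to 0.991 among the other 5.

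The plot of levels shows 45 members in the 6 libraries. Of the 36 subunit genes 35 had a mean of at least 1 FPKM, the filter for testing, and each of these 35 was at or above 1 FPKM in every library. Their means over the 6 libraries spanned 31.5-fold, and 21 of them lay at or above 20 FPKM. Ndufa2 and Ndufb11 were among the highest, and the lowest were Ndufb2, Ndufab1 and, close to 0, Ndufs3. In bulk RNA such as this, fewer cells of a type and less RNA per cell cannot be told apart.

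**Figure D1:**
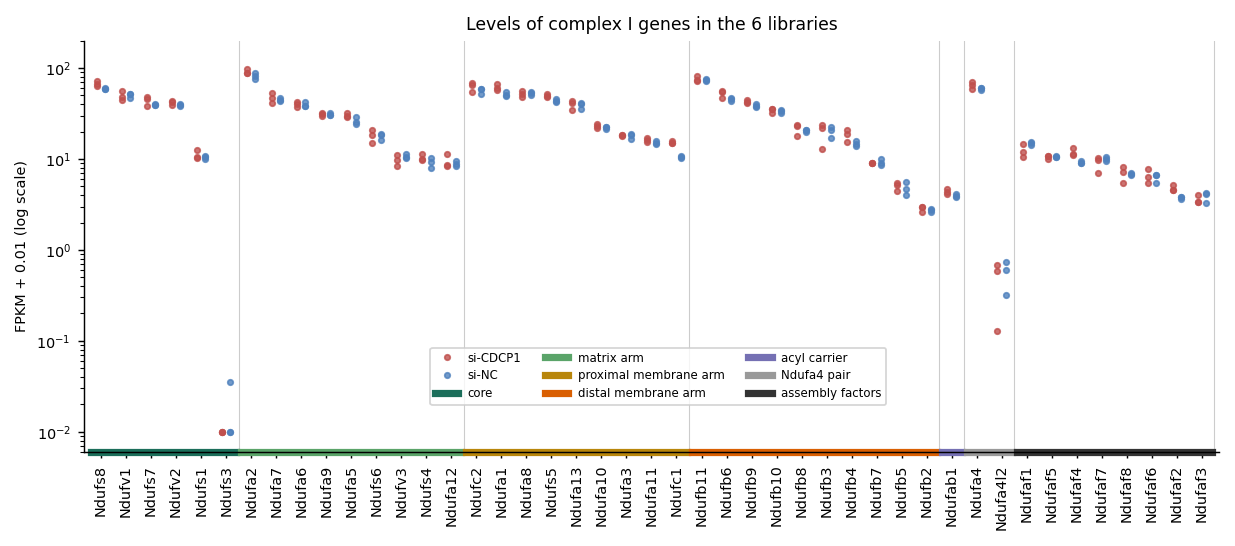
Level of each of 45 genes, as FPKM plus 0.01 on a log axis, with 1 point for each of the 3 si-CDCP1 libraries (red) and the 3 si-NC libraries (blue), and with genes ordered by role (coloured bar) and by mean. Genes differ widely in level, the libraries of Ndufa4l2 run from 0.117 to 0.728 FPKM and those of Ndufb3 from 12.8 to 23.9 FPKM, and Ndufs3 lies at the bottom of the axis in both groups.

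Ndufa2, a small accessory subunit of the matrix arm with a thioredoxin-like fold, had 89.4, 98.7 and 88.4 FPKM in si-CDCP1 replicates 1, 2 and 3, against 82.5, 74.9 and 87.3 FPKM in si-NC replicates 1, 2 and 3. Ndufb11, an X-linked subunit of the distal membrane arm, had 81.5, 74.6 and 72.5 FPKM in si-CDCP1 and 74.8, 72.1 and 75.8 FPKM in si-NC. The groups overlapped for Ndufb11 and lay next to each other without overlap for Ndufa2. At the low end, Ndufb2 had 2.58, 2.92 and 2.95 FPKM in si-CDCP1, against 2.72, 2.81 and 2.57 FPKM in si-NC, again with overlap. Ndufab1, the mitochondrial acyl carrier protein, which also serves fatty acid synthesis and iron-sulfur cluster assembly, had 4.31, 4.69 and 4.12 FPKM in si-CDCP1 and 4.12, 3.83 and 3.96 FPKM in si-NC. Its lowest si-CDCP1 value lay just above its highest si-NC value (log2 difference 0.11, SE 0.068, limma BH-adjusted p = 0.459).

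The order of levels among subunits ran with the gene lengths in the deposited table. Across the 35 subunits the Spearman correlation of mean FPKM with gene length was -0.62. FPKM divides reads by gene length, so this value is partly built into the measure. Recovered reads had a correlation of 0.24 with gene length. All points share the same 6 libraries. Ndufb2 and Ndufab1 have listed lengths of 5628 and 6883 bases and held 1603 and 2970 reads over the 6 libraries. Ndufa1, with 419 bases, held 2454 reads. Ndufab1 also has a listed processed pseudogene, Ndufab1-ps, at 7.65 ± 1.07 FPKM in si-CDCP1 and 6.02 ± 1.28 FPKM in si-NC (SD, n = 3 each), with which it could share reads, so the level of Ndufab1 is uncertain.

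Among the core subunits, Ndufs3 was close to absent from every library. This gene (ENSMUSG00000005510, mm10 chromosome 2, 90894634 to 90904827, minus strand) encodes a subunit of the ubiquinone-binding module at the foot of the matrix arm. It had 0, 0 and 0 reads in si-CDCP1 replicates 1, 2 and 3 and 0, 0 and 1 reads in si-NC replicates 1, 2 and 3, the last equal to 0.0257 FPKM. At this gene's length 3 reads would be 0.0686 to 0.0883 FPKM, depending on the library, so both groups lie under that floor and no fold is given. The next lowest core subunit, Ndufs1, averaged 11.1 ± 1.25 FPKM in si-CDCP1 and 10.4 ± 0.403 FPKM in si-NC (SD, n = 3 each).

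The near absence extended to the neighbours of Ndufs3. Between Mtch2 and Psmc3, a stretch of 187 kb, the table lists 9 genes, 5 of them protein coding, and these 9 held 9 reads in all, 4 in si-CDCP1 and 5 in si-NC. Kbtbd4, which overlaps Ndufs3 by 88 bases on the other strand, had 0 reads. Ptpmt1, a mitochondrial phosphatase gene of cardiolipin synthesis, had 2 reads and Celf1, which encodes an RNA-binding protein of splicing and mRNA decay, had 3. On either side, Mtch2 averaged 16.6 ± 0.189 FPKM in si-CDCP1 and 15.4 ± 0.852 FPKM in si-NC, and the proteasome gene Psmc3 68.5 ± 4.22 FPKM in si-CDCP1 and 67.7 ± 1.51 FPKM in si-NC (SD, n = 3 each). Mtch2 and Psmc3 had at least 2031 reads in every library, while none of the 9 genes between them had more than 3 reads in all 6 together. These neighbours were picked with their values in view, and the reason for the near absence was not tested.

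**Figure D2:**
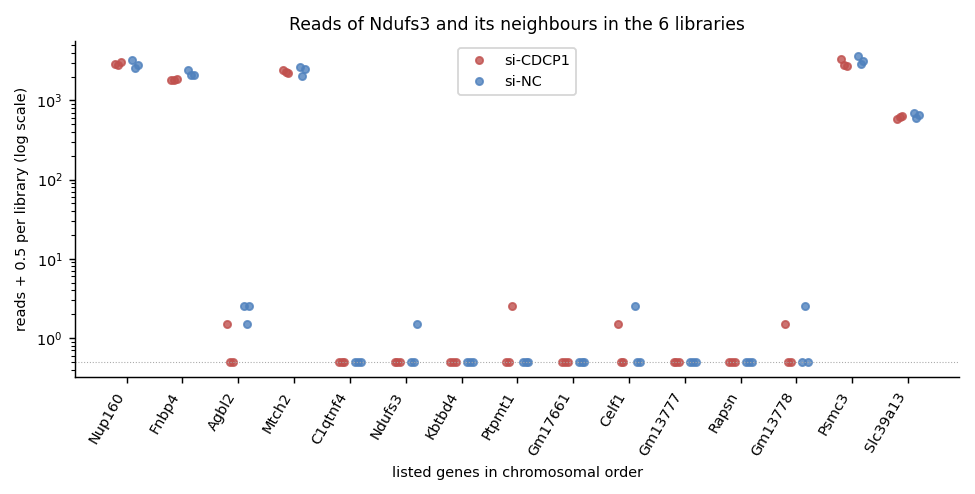
Recovered reads plus 0.5, on a log axis, of Ndufs3 and of its listed neighbours in chromosomal order, with 1 point for each si-CDCP1 (red) and si-NC (blue) library; the dotted line marks 0 reads. The 9 genes from C1qtnf4 to Gm13778 lie at or near the dotted line in all 6 libraries, and so does Agbl2, while Mtch2 and Psmc3 lie above 1000 reads.

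Between the groups, subunit transcripts were mostly slightly higher in si-CDCP1, and Ndufc1 stood out. Log2 differences (si-CDCP1 minus si-NC, on log2(FPKM + 1), which understates the change of low genes) were positive for 28 and negative for 7 of the 35 tested subunits, against 52.3% positive over all 12080 tested genes. Their median was 0.06, against 0.01 over all tested genes. At an unadjusted p under 0.05, 9 of the 35 subunits were higher, against a background of 8.94% of all tested genes, and 0 were lower, against 5.31%. After Benjamini-Hochberg (BH) adjustment over all genes, limma called 0 of the 12080 genes (0%), and so 0 members, while limma voom on recovered reads called 5 of 14365 genes (0.0348%), 0 of them members. Groups did not overlap, with all si-CDCP1 values above all si-NC values, for 7 of the 35 subunits, against 14.4% of tested genes, and the reverse held for 0 subunits, against 10.6%.

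These counts moved with how libraries were scaled. The FPKM sums of the si-CDCP1 libraries ran from 286916 to 294678 and those of the si-NC libraries from 280056 to 282051. With these sums made equal, 19 of 35 subunits had positive differences, against 38.4% of all genes, and 3 were higher at an unadjusted p under 0.05, against 4.45%. Over all genes the split at that p was then 537 higher and 1301 lower, instead of 1080 higher and 642 lower. Quantile normalisation gave 21 positive subunits, against 49.1% of all genes, and 3 higher, against 6.54%, with 790 higher and 798 lower over all genes. The 9 subunits kept a positive difference under every setting tried, but they were picked by p in these same libraries. Among all 35 subunits, 9 changed sign with equal FPKM sums and 7 with quantile normalisation.

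Ndufc1, a small single-helix subunit beside the mitochondrially encoded ND2 in the proximal membrane arm, had the smallest p of all members. The gene (ENSMUSG00000037152, mm10 chromosome 3, 51404677 to 51408988, minus strand) overlaps no other listed gene. It had 14.8, 15.1 and 15.8 FPKM in si-CDCP1 replicates 1, 2 and 3, against 10.9, 10.6 and 10.2 FPKM in si-NC replicates 1, 2 and 3. All si-CDCP1 values lay well above all si-NC values, with little spread inside either group. The log2 difference was 0.49 (SE 0.052), rank 4 by p among all tested genes, and the limma BH-adjusted p was 0.0818. Over the other settings that adjusted p ranged from 0.00323, with library weights, to 0.467, and it was under the threshold of 0.05 in 3 of them: library weights, limma voom on recovered reads without si-CDCP1 replicate 3, and a filter at 5 FPKM, where it was the only gene called higher (0.0123% of the genes tested). The log2 difference was 0.47 without si-CDCP1 replicate 3 and 0.51 without si-CDCP1 replicate 1. Ndufc2, its binding partner in the same arm, had 68.9, 54.4 and 64.7 FPKM in si-CDCP1, against 59.0, 52.5 and 59.6 FPKM in si-NC, which overlap (log2 difference 0.13, SE 0.096).

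Of the 9 proximal membrane arm accessory subunits, 8 had positive differences and 3 had an unadjusted p under 0.05: Ndufc1, Ndufa1 and Ndufs5. Over all tested genes 52.3% were positive and 8.94% were higher at that p. With equal FPKM sums 6 of the 9 were positive, these 3 among them, against 38.4% of all genes. Ndufa1, an X-linked subunit with a single membrane helix, had 66.7, 60.8 and 58.1 FPKM in si-CDCP1 replicates 1, 2 and 3, against 49.7, 50.8 and 54.7 FPKM in si-NC replicates 1, 2 and 3. Ndufs5, a disulfide-bonded subunit facing the intermembrane space, had 51.8, 49.4 and 48.1 FPKM in si-CDCP1 and 43.2, 45.5 and 42.2 FPKM in si-NC. Neither gene had overlapping groups. Their log2 differences were 0.25 (SE 0.067) and 0.19 (SE 0.052), with limma BH-adjusted p of 0.267 and 0.275. For Ndufa3, Ndufa8, Ndufa10, Ndufa11 and Ndufa13 the differences lay between -0.01 and 0.09 and the groups overlapped. Ndufa13 lies wholly within the span of Yjefn3 on the same strand, so its value is uncertain.

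Of the 6 tested nuclear core subunits 4 had positive differences (median 0.08), 4 also with equal FPKM sums, and 1, Ndufs8, had an unadjusted p under 0.05. Over all tested genes 52.3% were positive, 38.4% with equal FPKM sums, and 8.94% were higher at that p. Ndufs8, which carries iron-sulfur clusters close to the ubiquinone site, had 72.2, 63.5 and 67.7 FPKM in si-CDCP1 replicates 1, 2 and 3, against 59.4, 59.5 and 60.7 FPKM in si-NC replicates 1, 2 and 3, without overlap (log2 difference 0.17, SE 0.057, limma BH-adjusted p = 0.298). Ndufs7, which holds the last cluster before ubiquinone, had 48.0, 46.1 and 38.0 FPKM in si-CDCP1 and 39.2, 40.7 and 39.6 FPKM in si-NC. Its replicates 1 and 2 of si-CDCP1 lay above every si-NC value and its replicate 3 below all of them, and the log2 difference of 0.14 (SE 0.087) became 0.24 without si-CDCP1 replicate 3. Ndufv2, the cluster subunit next to the flavin, had 42.0, 39.5 and 44.0 FPKM in si-CDCP1, against 39.9, 38.1 and 39.7 FPKM in si-NC. Ndufv1, which binds NADH and the flavin, had 56.1, 47.9 and 45.0 FPKM in si-CDCP1 and 47.5, 51.9 and 51.9 FPKM in si-NC. Both of these overlapped between groups. Ndufs1, the large cluster-bearing subunit of the NADH-oxidising module, had 10.4, 10.3 and 12.5 FPKM in si-CDCP1 and 10.7, 9.96 and 10.5 FPKM in si-NC. The log2 differences of Ndufv2, Ndufv1 and Ndufs1 were 0.09, -0.03 and 0.08, with SEs of 0.055, 0.086 and 0.081, so none of these 3 showed a difference beyond the spread between libraries.

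**Figure D3:**
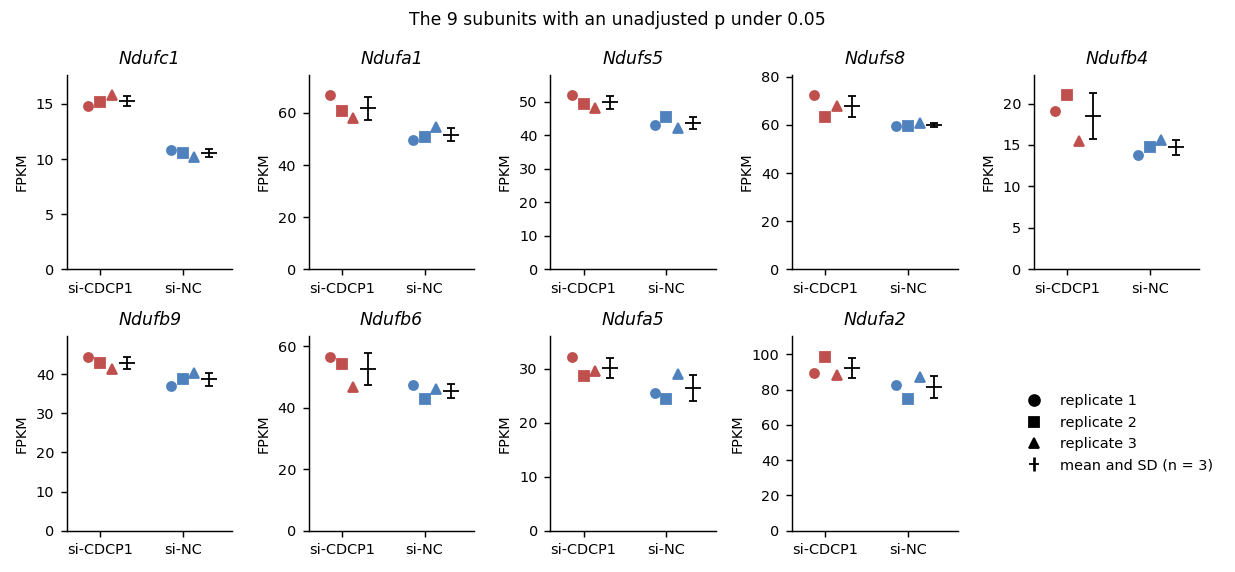
FPKM in each library of the 9 subunits with an unadjusted p under 0.05, si-CDCP1 (red) left of si-NC (blue), with symbols for replicates 1 to 3 and black bars for the mean and SD (n = 3). Axes start at 0, and Ndufc1 has the widest gap between groups relative to its spread, while si-CDCP1 replicate 3 of Ndufb4 falls among the si-NC values.

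Accessory subunits of the matrix arm, 9 genes, had 7 positive and 2 negative differences with a median of 0.05, and 3 positive ones with equal FPKM sums. Over all tested genes 52.3% were positive, 38.4% with equal FPKM sums, and 8.94% were higher at an unadjusted p under 0.05. Ndufa5, of the ubiquinone module, had 32.2, 28.7 and 29.7 FPKM in si-CDCP1 replicates 1, 2 and 3, against 25.5, 24.5 and 29.1 FPKM in si-NC replicates 1, 2 and 3 (log2 difference 0.19, SE 0.078). The difference of Ndufa2 was 0.17 (SE 0.073), and both genes had an unadjusted p under 0.05 (limma BH-adjusted p = 0.344 and 0.346). Ndufs4, whose loss in mice is used as a model of Leigh syndrome, had 10.0, 9.85 and 11.2 FPKM in si-CDCP1 and 10.3, 7.98 and 9.27 FPKM in si-NC, with overlap (log2 difference 0.16, SE 0.096). Ndufv3, an accessory subunit beside the flavin site, had a difference of -0.14 (SE 0.096), the lowest of the 35 subunits with all 6 libraries, on values of 11.0, 9.76 and 8.31 FPKM in si-CDCP1, against 10.3, 11.3 and 10.6 FPKM in si-NC. Only its si-CDCP1 replicates 2 and 3 lay below the si-NC values. Its difference was -0.05 without si-CDCP1 replicate 3 and -0.23 without si-CDCP1 replicate 1, where Ndufb3 was lower at -0.26. Ndufs6, Ndufa6, Ndufa7, Ndufa9 and Ndufa12 overlapped between groups, with differences between -0.01 and 0.05.

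Of the 10 distal membrane arm subunits, 8 had positive and 2 negative differences, with a median of 0.05, and 5 were positive with equal FPKM sums. The shares of positive differences over all tested genes were 52.3%, and 38.4% with equal FPKM sums. Ndufb4 had 19.1, 21.0 and 15.4 FPKM in si-CDCP1 replicates 1, 2 and 3, against 13.8, 14.8 and 15.6 FPKM in si-NC replicates 1, 2 and 3. Here si-CDCP1 replicate 3 fell inside the si-NC range, and the log2 difference of 0.30 (SE 0.11) became 0.42 without that library. Ndufb9, a subunit of the LYR family that binds acyl carrier protein, had 44.4, 42.9 and 41.2 FPKM in si-CDCP1 and 37.0, 38.7 and 40.3 FPKM in si-NC, without overlap (log2 difference 0.15, SE 0.053). Ndufb6 had 56.6, 54.3 and 46.9 FPKM in si-CDCP1, against 47.4, 43.0 and 46.0 FPKM in si-NC, where si-CDCP1 replicate 3 lay just below the highest si-NC value (log2 difference 0.20, SE 0.079). Ndufb6 overlaps Smim27 by 350 bases and Ndufa2 overlaps Tmco6 by 60 bases, each on the other strand. Without a stated strand setting both values are uncertain. Ndufb9 shares 3604 bases with another listed gene on its own strand, so its value is uncertain under any strand setting. The limma BH-adjusted p was 0.320, 0.320 and 0.332 for Ndufb4, Ndufb9 and Ndufb6. Ndufb3 had the largest SE of the 35 subunits, with 23.9, 21.8 and 12.8 FPKM in si-CDCP1 and 17.2, 21.1 and 22.6 FPKM in si-NC. Its difference of -0.09 (SE 0.22) was 0.17 without si-CDCP1 replicate 3. Ndufb2, Ndufb5, Ndufb7, Ndufb8, Ndufb10 and Ndufb11 overlapped between groups, with differences between -0.02 and 0.07.

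**Figure D4:**
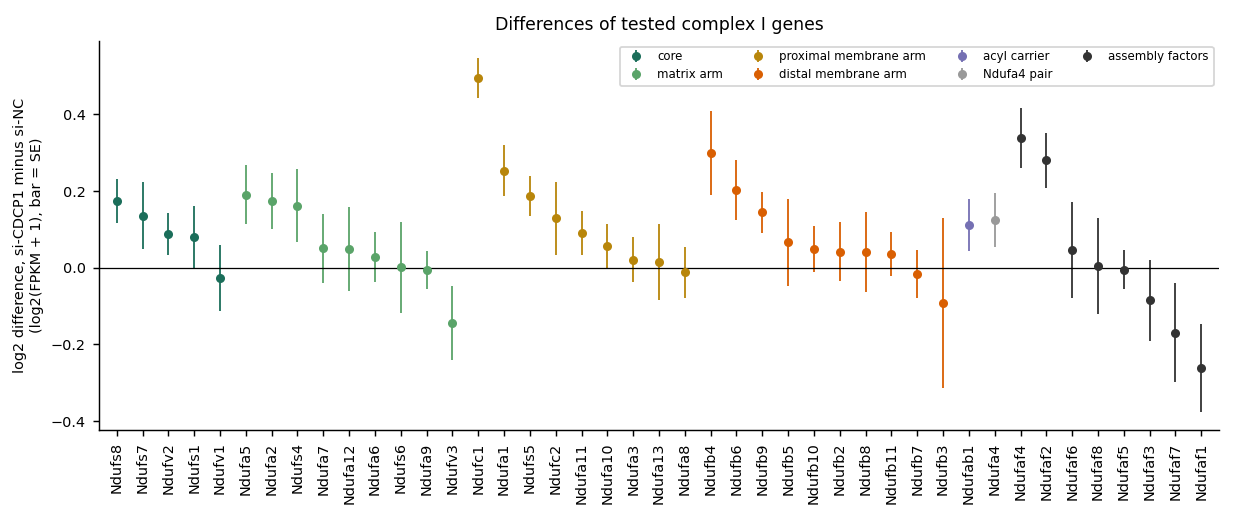
Log2 difference, si-CDCP1 minus si-NC, of 43 tested members on log2(FPKM + 1), with bars for the SE, coloured by role and sorted within each role. Ndufc1 lies highest at 0.49, most subunits lie above 0 (with equal FPKM sums 19 of all 35 do), and the assembly factors spread from -0.26 to 0.34.

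Ndufa4, now assigned to cytochrome c oxidase, had 70.6, 64.6 and 59.2 FPKM in si-CDCP1 replicates 1, 2 and 3, against 60.7, 57.2 and 59.7 FPKM in si-NC replicates 1, 2 and 3, with overlap (log2 difference 0.12, SE 0.070, limma BH-adjusted p = 0.432). Its paralog Ndufa4l2, a hypoxia-inducible gene, lay below the filter with 0.580, 0.672 and 0.117 FPKM in si-CDCP1 and 0.591, 0.728 and 0.306 FPKM in si-NC. These values stand for 25 reads in si-CDCP1 and 32 reads in si-NC. Ndufa4l2 overlaps Shmt2, a gene at 279 FPKM over the 6 libraries, by 32 bases on the other strand. Without a stated strand setting the values of Ndufa4l2 are uncertain. The exact permutation p, two-sided, was 0.6, and the smallest one this design allows is 0.1. Ndufa4 thus lay at the level of the higher subunits in all 6 libraries and its paralog under 1 FPKM in all of them.

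The 8 assembly factors were split, 4 with positive and 4 with negative differences and a median of 0.00. With equal FPKM sums 2 were positive, Ndufaf4 and Ndufaf2, against 38.4% of all genes, and the median was -0.05. Ndufaf4, which works with Ndufaf3 on the ubiquinone module, had 11.3, 11.0 and 13.3 FPKM in si-CDCP1 replicates 1, 2 and 3, against 8.94, 9.45 and 9.07 FPKM in si-NC replicates 1, 2 and 3. Ndufaf2, a relative of Ndufa12 that occupies its place in a late intermediate, had 4.56, 4.51 and 5.19 FPKM in si-CDCP1 and 3.78, 3.58 and 3.83 FPKM in si-NC. These were the 2 assembly factors with an unadjusted p under 0.05, where 8.94% of all tested genes were higher at that p. Both genes had si-CDCP1 values all above si-NC, as had 14.4% of all tested genes, and were highest in si-CDCP1 replicate 3. Their log2 differences were 0.34 (SE 0.078) and 0.28 (SE 0.072), and 0.26 and 0.23 without that library, with a limma BH-adjusted p of 0.267 for each. Ndufaf2 encloses Smim15, a gene on the other strand at 17.5 FPKM in si-CDCP1 and 18.3 FPKM in si-NC, and since the strand setting is not given its value is uncertain.

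On the other side, Ndufaf1, which builds the ND2 module together with Ecsit and Acad9, had 11.9, 14.8 and 10.5 FPKM in si-CDCP1 replicates 1, 2 and 3, against 15.4, 14.1 and 15.1 FPKM in si-NC replicates 1, 2 and 3. Replicates 1 and 3 of si-CDCP1 lay below every si-NC value and replicate 2 among them (log2 difference -0.26, SE 0.11, limma BH-adjusted p = 0.353). Without si-CDCP1 replicate 3 its difference was -0.16 (adjusted p = 0.449) and with library weights -0.06 (adjusted p = 0.664). Without si-CDCP1 replicate 2 it was -0.39 (adjusted p = 0.332). The unadjusted limma p of Ndufaf1 was 0.0355 with equal FPKM sums and 0.0298 with the length trend removed. In these 2 settings 10.8% and 6.37% of all genes were lower at an unadjusted p under 0.05. Ndufaf7, a mitochondrial protein methyltransferase, had 10.2, 9.75 and 6.96 FPKM in si-CDCP1 and 10.1, 10.6 and 9.57 FPKM in si-NC, and its difference of -0.17 was -0.01 without si-CDCP1 replicate 3. Ndufaf8, the partner of Ndufaf5, had 7.13, 8.24 and 5.46 FPKM in si-CDCP1, against 6.68, 6.84 and 6.97 FPKM in si-NC. Both ran low in the same si-CDCP1 library. Ndufaf5, which hydroxylates Ndufs7, had 10.8, 10.1 and 10.9 FPKM in si-CDCP1 and 10.5, 10.7 and 10.6 FPKM in si-NC. Ndufaf3 had 3.34, 3.38 and 3.99 FPKM in si-CDCP1, against 3.24, 4.12 and 4.22 FPKM in si-NC. It overlaps Impdh2, at 44.9 FPKM over the 6 libraries, by 48 bases on the other strand, so its value is uncertain. Ndufaf6 had 6.31, 7.85 and 5.50 FPKM in si-CDCP1 and 5.48, 6.65 and 6.70 FPKM in si-NC. Ndufaf8, Ndufaf5, Ndufaf3 and Ndufaf6 overlapped between groups, with differences of 0.00 for Ndufaf8, -0.01 for Ndufaf5, -0.09 for Ndufaf3 and 0.05 for Ndufaf6.

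The subunits did not behave alike in the 3 si-CDCP1 libraries. On the log2 scale, the median deviation of the 35 subunits from their own means was 0.11, 0.04 and -0.01 in si-CDCP1 replicates 1, 2 and 3, and -0.06, -0.06 and 0.00 in si-NC replicates 1, 2 and 3. Of the 35 subunits, 21 were at their highest in si-CDCP1 replicate 1, a library that held the highest value of 16.4% of all tested genes. In si-CDCP1 replicate 3, 12 subunits were at their lowest and 6 at their highest, where 30.0% and 34.0% of all tested genes were. Ndufc1 and Ndufs1 were among those highest there. Without si-CDCP1 replicate 3, the median log2 difference of the subunits was 0.11, 31 of 35 were positive, against 52.2% of all genes, and 12 were higher at an unadjusted p under 0.05, against 10.8% of all genes. With si-CDCP1 replicate 1 left out instead, only 21 of 35 were positive, against 51.7% of all genes, at a median of 0.05. In that setting 3 subunits were higher at an unadjusted p under 0.05, against 10.6%, and 1, Ndufv3, was lower, against 7.05%. Leaving out si-NC replicate 1, 2 or 3 gave 5, 3 and 8 subunits higher, against 5.30%, 4.95% and 5.87%. Leaving out si-CDCP1 replicate 2 gave 6, against 8.98%.

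**Figure D5:**
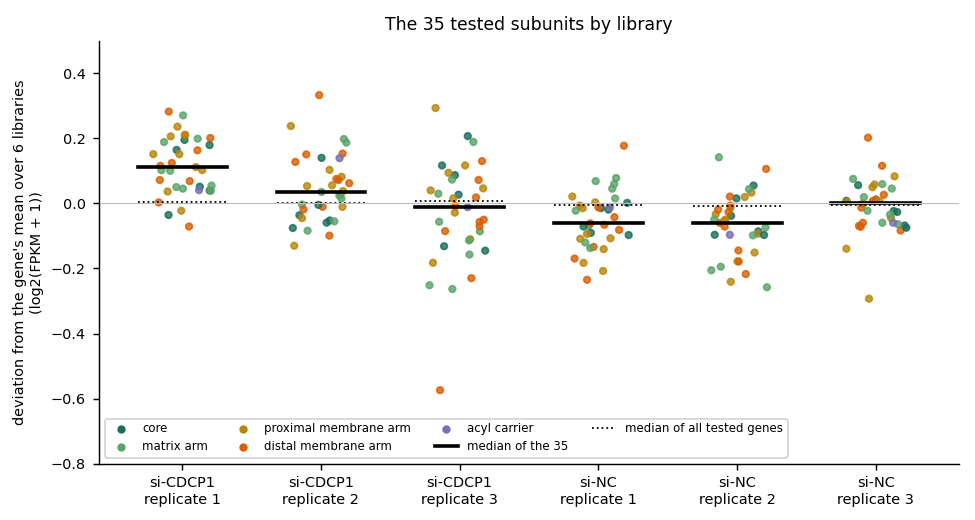
Deviation of each of the 35 tested subunits from its mean over the 6 libraries, on log2(FPKM + 1), by library and coloured by role, with the median of the 35 as a thick line and the median of all tested genes as a dotted line. Most points lie above 0 in si-CDCP1 replicate 1, the points of si-CDCP1 replicate 3 spread widely around -0.01 with Ndufb3 far below, and most points lie below 0 in si-NC replicates 1 and 2.

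Gene length moved with this pattern. Deviations of all tested genes in si-CDCP1 replicate 1 had a Spearman correlation of -0.31 with gene length, against -0.04 to 0.09 in the other libraries, and the subunits are short, with a median listed length of 1495 bases against 3980.5 bases over all tested genes. The 10 subunits under 1000 bases had a median log2 difference of 0.15 and the other 25 one of 0.05, where the medians over all tested genes were 0.01 in both length classes. With each library's length trend removed, the median over the subunits was 0.04 and 6 of 35 were higher at an unadjusted p under 0.05, against 7.68% of all genes; the difference of Ndufc1 was then 0.46. Summed adipocyte markers also moved with the groups, at 12.2 to 18.6 FPKM in si-CDCP1 and 9.34 to 11.9 FPKM in si-NC: 2 of the 4, Lpl and Fabp4, averaged at least 1 FPKM, and the defining markers Adipoq and Plin1 were at or near 0. The part of these markers in the subunit differences was not tested.

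Library weights, and limma voom without si-CDCP1 replicate 3, called some members after adjustment. For Ndufc2 the weighted difference was -0.03, against 0.10 without si-CDCP1 replicate 3. Only its si-CDCP1 replicate 2, at 54.4 FPKM, did not lie above every si-NC value. For Ndufaf6 the differences were 0.25 and 0.15, and only si-CDCP1 replicate 2 lay above every si-NC value. Neither gene was called with library weights (limma BH-adjusted p = 0.811 for Ndufc2 and 0.126 for Ndufaf6). The part of si-CDCP1 replicate 2 in the weighted calls was not tested. With limma's library weights, 14 of the 35 subunits had an unadjusted p under 0.05 and a positive difference, against 16.2% of all genes. After adjustment 7 of them rose, Ndufc1, Ndufb4, Ndufb6, Ndufs5, Ndufa1, Ndufs7 and Ndufa2, against 4.62% of all genes, and so did the assembly factors Ndufaf4 and Ndufaf2. Limma voom on recovered reads without si-CDCP1 replicate 3 called Ndufc1, Ndufb4, Ndufs7, Ndufb6 and Ndufaf4 as higher, against 2.40% of all genes, and had 13 subunits higher at an unadjusted p under 0.05, against 10.0%. No member was called lower in either setting, where few genes were: 307 of 12080 with library weights and 151 of 14267 in voom without si-CDCP1 replicate 3. With all 6 libraries, voom called 0 members, and 6 subunits were higher at an unadjusted p under 0.05, against 8.21% of all genes.

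Other genes of the enzyme and of the respiratory chain had 0 calls after adjustment with all 6 libraries equally weighted and the filter at 1 FPKM, where 52.3% of all tested genes were positive and 8.94% were higher at an unadjusted p under 0.05. With library weights, 9 of 42 nuclear subunits of complexes II to V were called higher, and so were Timmdc1 of the other assembly factors, Glrx5 of iron-sulfur cluster assembly and the regulator Nrf1. Voom without si-CDCP1 replicate 3 called 6 of 43 such subunits, Glrx5 and Nrf1 as higher. The shares over all genes in these settings were the 4.62% and 2.40% given above. All 7 mitochondrially encoded complex I subunits had positive differences (median 0.10), 4 of them with equal FPKM sums, and 0 had an unadjusted p under 0.05. Of these, mt-Nd4, a proton-pumping subunit, averaged 959 ± 61.5 FPKM in si-CDCP1 and 883 ± 21.5 FPKM in si-NC, and mt-Nd1, next to the ubiquinone site, 2230 ± 133 FPKM in si-CDCP1 and 2075 ± 57.0 FPKM in si-NC (SD, n = 3 each). Nuclear copies of mitochondrial genes can share reads with them, so both levels are uncertain, and without si-CDCP1 replicate 3 the median of the 7 was 0.05. Of 15 complex I assembly factors with other names, 9 had positive differences (median 0.03) and 2 were higher at an unadjusted p under 0.05 (13.3% of the 15, against 8.94% of all genes). Timmdc1, a membrane factor of the ND1 module, averaged 10.6 ± 0.891 FPKM in si-CDCP1 and 8.82 ± 0.327 FPKM in si-NC, and Chchd4, the oxidoreductase that folds disulfide-bonded proteins of the intermembrane space, 8.86 ± 1.30 FPKM in si-CDCP1 and 6.86 ± 0.162 FPKM in si-NC (SD, n = 3 each). Ecsit and Acad9, the partners of Ndufaf1, had differences of -0.01 and -0.06.

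Of 13 tested genes of iron-sulfur cluster assembly, 9 had positive differences (median 0.08) and 2 had an unadjusted p under 0.05, namely the glutaredoxin Glrx5 (log2 difference 0.21, SE 0.055) and Lyrm4, which stabilises the cysteine desulfurase (0.28, SE 0.12, and 0.15 without si-CDCP1 replicate 3). All 12 transcription regulators of respiratory genes had positive differences (median 0.11), 9 of them with equal FPKM sums, with 3 at an unadjusted p under 0.05. Over all tested genes 52.3% were positive, 38.4% with equal FPKM sums, and 8.94% were higher at that p. Nrf1, a factor that binds many promoters of respiratory genes, averaged 7.05 ± 0.644 FPKM in si-CDCP1 and 5.75 ± 0.0915 FPKM in si-NC, and Tfam, which packages mitochondrial DNA, 25.7 ± 1.17 FPKM in si-CDCP1 and 23.2 ± 0.494 FPKM in si-NC (SD, n = 3 each). The other regulator, the coactivator gene Ppargc1a, had a difference of 0.24, and 0.13 without si-CDCP1 replicate 3. The nuclear subunits of complexes II to V had 35 positive and 7 negative differences among 42 tested genes, a median of 0.09 and 14 genes higher at an unadjusted p under 0.05, against 8.94% of all genes. The smallest p values were those of Cox5a of cytochrome c oxidase and Atp5j2 of ATP synthase, each with a log2 difference of 0.20. That count of 14 was 23 without si-CDCP1 replicate 3, against 10.8% of all genes, and 8 with equal FPKM sums, against 4.45%. Whether complex I differs from complexes II to V was not tested. With equal FPKM sums the medians of these 5 lists were 0.05 for the mitochondrially encoded subunits, 0.00 for the other assembly factors, 0.03 for cluster assembly, 0.06 for the regulators and 0.04 for complexes II to V, against -0.04 over all genes.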

How the data were processed

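Total RNA from 6 samples was isolated on RNeasy columns and sequenced after preparation with a SMARTer mRNA kit, per the labels' protocols. The authors deposited 1 table of FPKM that also lists gene lengths, per the file headers. The genome build is mm10, per the submitters' processing notes. No aligner, counting tool or strand setting is given in the sources used here. FPKM times gene length came out as whole reads for 100% of values above 0 (within 0.01 of a read) in every library. Reads in listed genes were 98.42% to 98.44% of the total each library's step implies in si-NC and 99.85% to 104.01% in si-CDCP1. The scale of FPKM thus differed between the groups, and voom took the same totals as library sizes. A floor of 3 reads in 1 kb equals 0.149 to 0.192 FPKM; floors cover counting error only.

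Limma 3.58.1 (R 4.3.3) tested log2(FPKM + 1) over 12080 genes, those whose mean reached 1 FPKM, with an intensity trend, two-sided, BH threshold 0.05, and no pairing. List members, roles and tests were chosen with earlier results of these data known. Values in every library are given for the 10 subunits with the smallest p, the core subunits, the 3 highest and 3 lowest subunits, Ndufab1, Ndufa4, Ndufa4l2 and all assembly factors above the filter, and of each other list the 2 genes with the smallest p are named; Ndufc2, Ndufv3 and Ndufb3 were added after their values were seen. The values of 1 gene that these rules select are not reported here. Protein and promoter sequences were not used here. Members that overlap another listed gene number 21 of 46. The alternatives were another pseudocount, filters, scalings, library weights, a replicate block, protein-coding genes, removal of the length trend (lowess, span 0.3), voom (at least 10 reads in 3 libraries) and each library left out.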

Additional observations from a re-analysis of the deposited data

How the results depend on the processing

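The number of genes called over all genes, 0 with the filter at 1 FPKM, was 7 with no filter, 4 with a filter at 5 FPKM, 1 with equal FPKM sums, 2 with quantile normalisation, 865 with library weights, 2 over protein-coding genes only, 3 with the length trend removed, 5 with voom and 12 with the length trend removed without si-CDCP1 replicate 3. It ran from 0 to 1 with each library left out in turn, and was 493 in voom without si-CDCP1 replicate 3. The number of subunits higher at an unadjusted p under 0.05, 9 of 35, was 3 with equal sums, 3 with quantile normalisation and 14 with library weights, and 3 to 12 with each library left out; voom without si-CDCP1 replicate 3 gave 13. The median over subunits, 0.06, was 0.00467 with equal sums; with a library left out it ran from 0.0504 to 0.112, and voom without si-CDCP1 replicate 3 gave 0.121. The median over the Ndufaf genes, 0.00, was 0.0798 with library weights and ran from -0.0649 to 0.0660 with a library left out, and voom without si-CDCP1 replicate 3 gave 0.0758. The cause of these shifts was not tested. No member at an unadjusted p under 0.05 changed sign in any setting, but these members were picked by that p in the same libraries. Among the 35 subunits, between 0 and 9 changed sign, most with equal sums. Removal of the length trend without si-CDCP1 replicate 3 was added after the data had been seen. Same-numbered libraries of the 2 groups had deviations correlated at -0.02, 0.03 and 0.02, so the numbers were not taken to pair them; with the replicate number as a block, 1 gene was called, 7 subunits were higher at an unadjusted p under 0.05, against 8.23% of all genes, and medians stayed at 0.0569 and -0.000389. Every tested member held at least 595 reads over the 6 libraries, and Ndufs3 and Ndufa4l2 lay too low to compare.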
